A study of Mus musculus with 12 samples.

Results

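The endocannabinoid system genes are 8 of the 55385 genes in the expression table of this study, and they were taken as the rows whose gene name is Cnr1, Mgll, Faah, Dagla, Daglb, Napepld, Abhd6 or Abhd12. All 8 were found, all passed the expression filter, and their RNA levels are described here in 12 libraries, each from the brain of 1 mouse. The mice were wild-type C57/BL6J males, bought at 8 weeks of age, in 4 groups of 3. The C_W group received water and no stress, and the C_O group was dosed daily with 200 mg/kg of krill oil over 5 weeks. The MS_W group received water and was exposed to chronic unpredicted mild stress (CUMS) for 4 weeks, and the MS_O group received both CUMS and krill oil. CUMS is a varying sequence of mild stressors such as damp or tilted cages, restraint, isolation, noise and disturbed light, and krill oil is a source of marine n-3 fatty acids bound in part to phospholipids. Libraries carry the name of the group followed by the number of the mouse (MS_W95).

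Endocannabinoids are lipid messengers made on demand from membrane phospholipids, mostly in the postsynaptic neuron, and they act backwards on the presynaptic terminal. 2-arachidonoylglycerol (2-AG) is made by the diacylglycerol lipases Dagla and Daglb and is broken down by Mgll, Abhd6 and Abhd12, while anandamide can be released by Napepld and is broken down by Faah. Both act on the CB1 receptor, which Cnr1 encodes and which lowers transmitter release. Values are FPKM (fragments per kilobase of transcript, relative to all mapped fragments), which are scaled for gene length and depth and so allow levels of different genes to be compared.

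The summed estimated counts were 50912906 to 75678721 per library, and those of C_W (69768244 to 75678721) lay above those of MS_W (51748181 to 61608502). Of the 12 libraries, C_O72 and MS_W95 differed from the rest. Pearson's r of log2(FPKM + 1) between them was 0.970, while either reached at most 0.937 with the other 10 libraries and those 10 had at least 0.959 among themselves. The 9 cerebellum markers summed to 305 FPKM in C_O72 and 1039 FPKM in MS_W95, against 27.97 to 44.9 FPKM in the other 10 libraries, and the 7 hindbrain and spinal cord markers summed to 82.2 and 28.2 FPKM against at most 0.383 FPKM. The tissue is labelled brain and the methods describe whole brain, yet in 10 of 12 libraries the hindbrain and spinal cord markers were near 0 and the cerebellum markers were low. Levels that differ between brain regions are thus not fully comparable between these libraries, and results that rest on C_O72 or MS_W95 are given with and without them. In bulk tissue, fewer cells of a type and less RNA per cell cannot be told apart.

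The table places the 8 genes, in build mm10, as follows: Cnr1 at chr4:33924593-33948831 (plus strand), Mgll at chr6:88724412-88828360 (plus strand), Faah at chr4:115967145-116017727 (minus strand), Dagla at chr19:10245265-10304877 (minus strand), Daglb at chr5:143464584-143505942 (plus strand), Napepld at chr5:21662901-21701396 (minus strand), Abhd6 at chr14:8002902-8056763 (plus strand) and Abhd12 at chr2:150832493-150904741 (minus strand).

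The sequences just upstream of 3 members are shown because Mgll and Faah are the members with the smallest p between C_W and MS_W, and Napepld is the one with the smallest p between C_W and C_O. They are the 250 bases before a RefSeq transcript start, given 5′ to 3′ on the strand of the gene in build GRCm38.p6, and 6 of the 8 members matched the table of such windows, with 10 windows in all. Capitals mark matches on either strand to the E-box CACGTG or to the GC box GGGCGG, whose other strand reads CCGCCC. Mgll has 2 windows and the one shown ends at the start that the table gives, while the other (chr6:88724454-88724703) held 1 GC box, no E-box and 40 CpG at 74.8% GC. The windows shown lie at chr6:88724162-88724411 (Mgll, plus strand), chr4:116017925-116018174 (Faah, minus strand) and chr5:21701623-21701872 (Napepld, minus strand). Those of Faah and Napepld do not adjoin the gene starts given above (116017727 and 21701396) but lie further upstream.
Mgll: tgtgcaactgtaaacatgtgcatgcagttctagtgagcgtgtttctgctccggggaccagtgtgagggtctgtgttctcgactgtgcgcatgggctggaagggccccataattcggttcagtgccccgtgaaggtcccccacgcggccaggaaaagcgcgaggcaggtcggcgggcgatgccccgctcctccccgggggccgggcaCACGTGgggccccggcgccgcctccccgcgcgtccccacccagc
Faah: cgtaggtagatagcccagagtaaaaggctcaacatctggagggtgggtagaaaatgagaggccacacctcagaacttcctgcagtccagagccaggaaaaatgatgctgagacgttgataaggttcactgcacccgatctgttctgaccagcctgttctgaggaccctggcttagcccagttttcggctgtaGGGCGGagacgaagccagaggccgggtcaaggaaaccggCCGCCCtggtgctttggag
Napepld: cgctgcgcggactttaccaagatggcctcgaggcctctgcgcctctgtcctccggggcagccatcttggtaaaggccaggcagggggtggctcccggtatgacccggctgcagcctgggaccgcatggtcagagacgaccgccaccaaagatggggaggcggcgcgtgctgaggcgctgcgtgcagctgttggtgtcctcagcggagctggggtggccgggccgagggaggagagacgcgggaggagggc
The Mgll window held 1 E-box and 23 CpG at 68.0% GC, the Faah window 2 GC boxes and 9 CpG at 55.6% GC, and the Napepld window neither motif, with 21 CpG at 69.6% GC. Over 32851 windows of the same length, 6.02% held the E-box and 32.7% the GC box, and the medians were 52.4% GC and 6 CpG. The search also covered the CCAAT box (CCAAT, 33.8% of windows), the TATA box (TATAAA, 12.4%) and the cAMP response element (TGACGTCA, 1.55%), on both strands, and none of these was found in the 3 windows. A match is a description of the letters and not evidence of a site in use.

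The levels of the 8 genes spanned a wide range, with the same gene on top in every library. Abhd12, a membrane hydrolase that also degrades lysophosphatidylserine, had the highest mean over the 12 libraries, 108.6 ± 11.6 FPKM (SD, n = 12), and ranked first of the 8 in all 12. Mgll averaged 30.8 ± 19.9, Cnr1 19.3 ± 6.16, Dagla 18.7 ± 6.004 and Abhd6 18.1 ± 3.54 FPKM, and the last 3 lay within 1 SD of each other. Faah averaged 8.06 ± 2.44 FPKM, and Daglb (3.76 ± 0.537) and Napepld (3.62 ± 1.08) were lowest and did not differ beyond their spread. Mgll varied most: its highest level was 8.86 times its lowest, a ratio at the 93.2 percentile of the 13621 genes with a mean of at least 1 FPKM. The same ratio was 1.40 for Abhd12, at the 12.5 percentile. The plot of FPKM by library shows this contrast.

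**Figure D1:**
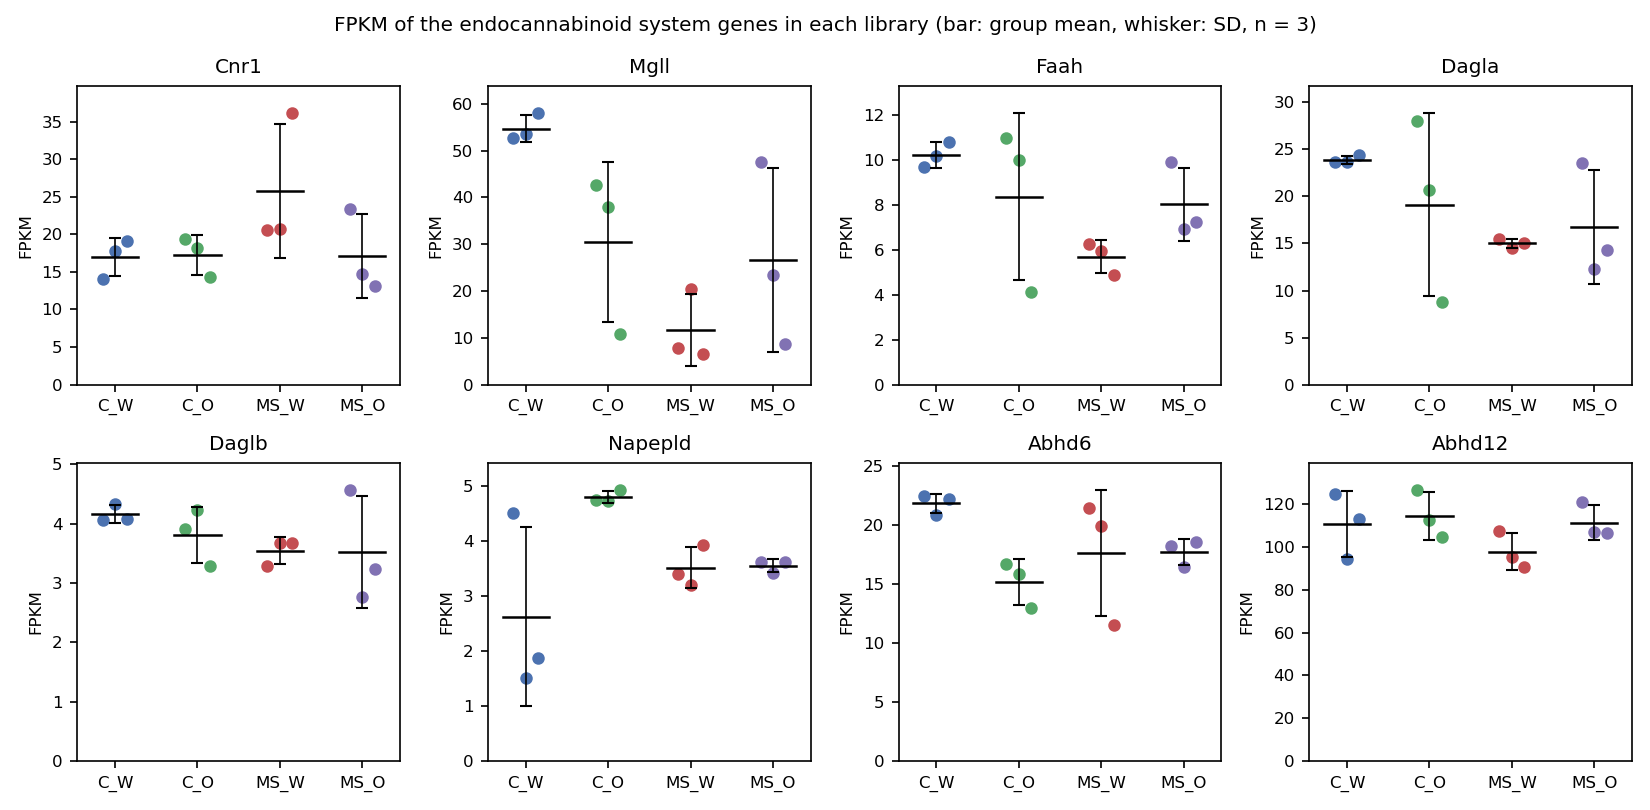
FPKM of the 8 genes (y axis, from 0) in the 12 libraries, grouped on the x axis as C_W, C_O, MS_W and MS_O. Each point is 1 mouse, the bar is the group mean and the whisker the SD (n = 3). The 3 C_W points of Mgll, at 52.6 to 58.0 FPKM, lie above all 9 others, and Abhd12 is near the same level in all 4 groups.

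The first comparison, C_W with MS_W, asks how CUMS alone goes with the levels of these genes. Mgll was much lower in MS_W, Faah and Dagla were moderately lower, and Cnr1 was higher, while Daglb was slightly lower and Napepld, Abhd6 and Abhd12 overlapped between the groups. None of the 8 passed an adjusted p of 0.05 (limma with Benjamini-Hochberg adjustment over the 21393 genes tested; 0.00467% of all genes, which is 1 gene, did). At an unadjusted p under 0.05, Mgll and Faah were lower, 2 of 8, where 10.5% of all tested genes had such a p and 3.79% were lower. In 5 of 8 the groups did not overlap, 4 lower and 1 higher in MS_W, where this held for 24.6% of all tested genes, 8.22% lower and 16.3% higher. The difference was below 0 for 6 of 8 members and for 37.9% of all tested genes, and the median difference in log2(FPKM + 1) was -0.26 over the members and 0.06 over all tested genes. Over all tested genes the direction depended on the scaling: 1435 were higher and 810 lower at an unadjusted limma p under 0.05, against 936 and 1130 with quantile normalization and 683 and 1485 with median centring, where the median was 0.012 and -0.026.

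Mgll encodes monoacylglycerol lipase, the enzyme that clears most 2-AG in the brain. Its level was 52.6, 53.5 and 58.0 FPKM in the C_W libraries (C_W1, C_W64 and C_W70). In the MS_W libraries it was 7.86 (MS_W31), 20.4 (MS_W75) and 6.54 FPKM (MS_W95). Every MS_W library was thus far below every C_W library, and MS_W75 was the highest of its group. The group means were 54.7 ± 2.88 and 11.6 ± 7.65 FPKM (SD, n = 3), which is 4.71 times higher in C_W. The difference, MS_W minus C_W, was -2.30 in log2(FPKM + 1) with an SE of 0.637 and a 95% confidence interval of -3.72 to -0.89, at an unadjusted p of 0.00443 and an adjusted p of 0.289 in limma. Mgll was the only member past the thresholds of the study for a differentially expressed gene, applied here with the limma p in place of that of Ballgown: a log2 ratio of means beyond 1 in either direction with an unadjusted p under 0.05, which 4.59% of all tested genes met. Under the 16 alternatives its difference stayed below 0, with unadjusted p from 0.000379 to 0.0193 and adjusted p from 0.0293 to 0.695, the lowest in DESeq2 on the estimated counts. In that DESeq2 fit, 389 of all 21393 tested genes had an adjusted p under 0.05. Without MS_W95 and C_O72 the difference was -2.01 (limma, adjusted p = 0.172).

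Faah encodes fatty acid amide hydrolase, the main enzyme that breaks down anandamide. In C_W it was at 9.66, 10.2 and 10.8 FPKM, and in MS_W at 6.23, 5.95 and 4.85 FPKM. All 3 MS_W libraries were below all 3 C_W libraries. The means were 10.2 ± 0.568 and 5.67 ± 0.731 FPKM, and the difference in log2(FPKM + 1) was -0.75 (SE 0.276), with an unadjusted p of 0.0206 and an adjusted p of 0.395 in limma. The unadjusted p of Faah was above 0.05 when C_W70 was left out (0.0538) or when MS_W95 was left out (0.0641). In the fit of the 10 libraries without C_O72 and MS_W95, its difference was -0.66 (limma, unadjusted p = 0.00108, adjusted p = 0.0682).

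Dagla makes most of the 2-AG that serves retrograde signalling at synapses, and Daglb is the related lipase known chiefly from microglia and macrophages. Dagla was at 23.7, 23.7 and 24.4 FPKM in C_W and at 15.5, 14.6 and 15.0 FPKM in MS_W. The values were close together within each group and the groups did not overlap. The difference in log2(FPKM + 1) was -0.64 (SE 0.344), with an adjusted p of 0.538 in the limma fit of all 4 groups, whose shared spread includes the wide C_O and MS_O groups. In a limma fit of C_W and MS_W alone, the same difference had an adjusted p of 0.0293, and the range over the 16 alternatives was 0.0293 to 0.965. In that fit of 2 groups, 121 of all 21393 tested genes had an adjusted p under 0.05. Daglb was at 4.06 to 4.33 FPKM in C_W and 3.28 to 3.67 FPKM in MS_W, with a difference of -0.19 (SE 0.146). The annotation places 24.1% of the exon bases of Daglb (2309 bases) opposite exons of Rac1, which averaged 74.0 FPKM, and the use of strand in the counting is not given in the sources used here, so the level of Daglb is uncertain.

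Cnr1 was the only member with all MS_W libraries above all C_W libraries. It was at 14.1, 17.7 and 19.1 FPKM in C_W and at 20.5, 20.7 and 36.1 FPKM in MS_W. MS_W95 was the highest of all 12 libraries, and MS_W31 and MS_W75 were only just above the highest C_W library. The difference in log2(FPKM + 1) was 0.53 (SE 0.255; limma, adjusted p = 0.489), and it was 0.27 without MS_W95. Abhd6, a serine hydrolase that limits 2-AG at the postsynaptic side, was at 20.9 to 22.5 FPKM in C_W and at 21.5, 19.95 and 11.6 FPKM in MS_W31, MS_W75 and MS_W95. Its difference was -0.34 with MS_W95 and -0.07 without it. Napepld, with a difference of 0.40 (0.75 without C_W1; limma, adjusted p = 0.200), and Abhd12, with -0.17, had intervals that included 0 (-0.12 to 0.92 and -0.45 to 0.11).

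Markers of the cortex moved with the same groups. All 10 genes of the cortex list had a lower mean in MS_W than in C_W, 8 of them without overlap and 6 with an unadjusted limma p under 0.05. Their summed level was 467 to 565 FPKM in C_W, 172 to 508 in C_O, 133 to 233 in MS_W and 288 to 410 in MS_O, and 1 of the 10 genes was listed as without signal, in C_O72 only. The 9 hypothalamus markers summed to 3.84 to 14.7 FPKM in C_W and 12.96 to 133 FPKM in MS_W, and 6 general neuron markers to 929 to 1013 FPKM and 742 to 781 FPKM. All 9 striatum markers had a higher mean in MS_W, 5 of them with an unadjusted limma p under 0.05, and they summed to 95.7 to 184 FPKM in C_W and to 707, 1013 and 153 FPKM in MS_W31, MS_W75 and MS_W95, so that the groups overlapped only through MS_W95. Of 17 marker lists, the mean of log2(FPKM + 1) was lower in MS_W without overlap for the cortex and general neuron lists. It was higher for the hypothalamus, hindbrain and astrocyte lists, and the other 12 overlapped. Single genes went both ways in the general neuron list (3 higher and 3 lower in MS_W) and in the astrocyte list (5 higher and 2 lower). The hindbrain list was near 0 in C_W (at most 0.041), MS_W31 (0.065) and MS_W75 (0.068), against 1.86 in MS_W95. The part of these differences in the levels of Mgll, Faah and Dagla was not tested.

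Within groups, the order of the libraries by the cortex list was partly that of the 3 enzymes. In C_O, the mean of log2(FPKM + 1) over the cortex list was 4.82 in C_O15, 4.33 in C_O30 and 2.48 in C_O72, where Dagla was at 28.02, 20.6 and 8.74 FPKM. In MS_O it was 4.35 in MS_O13, 3.19 in MS_O46 and 3.64 in MS_O78, where Dagla was at 23.6, 12.3 and 14.4 FPKM. In both groups the library highest for the cortex list was also highest for Mgll, Faah and Dagla, and the library lowest for the list was lowest for Faah and Dagla. Mgll departed from that order in MS_O, at 23.5 FPKM in MS_O46 and 8.66 FPKM in MS_O78. In C_W it did not hold, since C_W70 was lowest for the list (4.32) and highest for Mgll, Faah and Dagla. In MS_W the library lowest for the list, MS_W95 (2.45), was lowest for Mgll and Faah but not for Dagla.

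**Figure D2:**
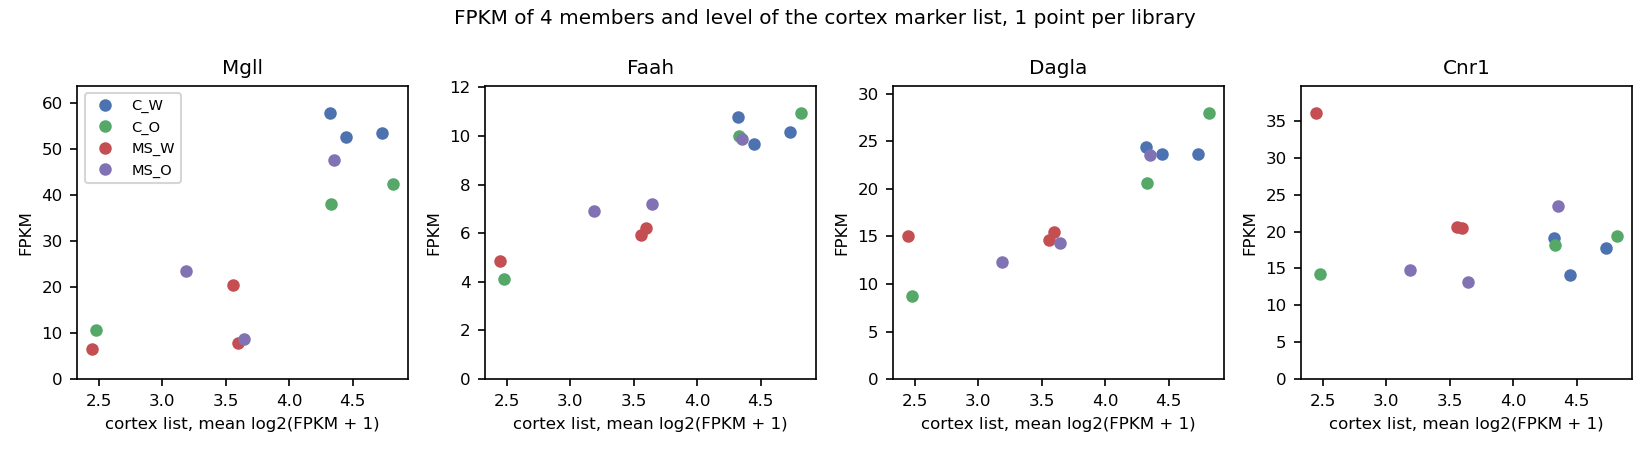
FPKM of Mgll, Faah, Dagla and Cnr1 (y axes, from 0) against the mean of log2(FPKM + 1) over 10 cortex markers (x axis), with 1 point per library and colours for the 4 groups. The C_W libraries lie at 4.32 to 4.73 on the x axis and the MS_W libraries at 2.45 to 3.596, and Cnr1 is highest in the MS_W library at 2.45.

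The comparison of C_O with MS_O asks the same of CUMS in mice that received krill oil. No member was past an unadjusted limma p of 0.05, where 8.88% of all tested genes were, and none had an adjusted p under 0.05. Only Napepld, a phospholipase D that releases anandamide and related amides from membrane phospholipids, did not overlap, 1 of 8 where 12.2% of all tested genes did not (3.29% in that direction). It was at 4.75, 4.73 and 4.93 FPKM in C_O and at 3.61, 3.41 and 3.61 FPKM in MS_O. Both groups were tight, and the difference in log2(FPKM + 1) was -0.35 (SE 0.236; limma, adjusted p = 0.680).

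For the other members the groups overlapped, and both C_O and MS_O spanned high and low libraries. Mgll was at 42.5, 38.0 and 10.8 FPKM in C_O15, C_O30 and C_O72. It was at 47.6, 23.5 and 8.66 FPKM in MS_O13, MS_O46 and MS_O78. The 2 groups thus covered nearly the same range, and the difference was -0.27 with a 95% confidence interval of -1.68 to 1.15. Without C_O72 and MS_W95, Faah and Dagla were lower in MS_O at an unadjusted limma p under 0.05, with differences of -0.36 (adjusted p = 0.343) and -0.55 (adjusted p = 0.360), whereas with all libraries they were 0.02 and -0.09. Faah was at 4.11 FPKM in C_O72 against 10.96 and 9.99 FPKM in C_O15 and C_O30. With all libraries the difference for Faah was below 0 with quantile normalization, with median centring, in edgeR and in DESeq2 (-0.14 to -0.035), and it was -0.12 without MS_O13, so that no direction is shown. Of the 17 marker lists, the olfactory bulb list and the list of CCK and other interneurons had a higher mean of log2(FPKM + 1) in MS_O without overlap, and the part of this in the levels of the members was not tested.

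The comparison of C_W with C_O, which shares C_W with the first, asks how krill oil alone goes with the levels. Napepld was higher and Abhd6 lower in C_O at an unadjusted limma p under 0.05, 2 of 8 where 3.55% of all tested genes had such a p (1.51% higher and 2.04% lower), and no member passed the adjusted p, which 0.0% of all tested genes passed. In 3 of 8 the groups did not overlap, where 9.42% of all tested genes did not (4.08% higher and 5.34% lower). Napepld was higher, and Mgll and Abhd6 were lower. Napepld was at 4.50, 1.51 and 1.87 FPKM in C_W1, C_W64 and C_W70 and at 4.73 to 4.93 FPKM in C_O. C_W1 was close to the C_O libraries and the other 2 C_W libraries were far below them. The difference in log2(FPKM + 1) was 0.77 (SE 0.236; limma, unadjusted p = 0.00835, adjusted p = 0.908), and without C_W1 it was 1.11 with an adjusted p of 0.0290. That call therefore depends on 1 control library, and 4 of all 21393 tested genes had an adjusted p under 0.05 in that fit. The adjusted p of Napepld ranged from 0.0290 to 1 over the 16 alternatives.

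Abhd6 was at 22.5, 20.9 and 22.2 FPKM in C_W and at 16.7, 15.9 and 12.998 FPKM in C_O. Every C_O library was below every C_W library, and C_O72 was the lowest. The difference in log2(FPKM + 1) was -0.50 (SE 0.193; limma, unadjusted p = 0.0253, adjusted p = 0.908), and without C_O72 and MS_W95 it was -0.40 (unadjusted p = 0.000723, adjusted p = 0.843). Leaving out C_W1, C_W70 or C_O72 alone took the unadjusted p of Abhd6 above 0.05, to 0.0608, 0.0582 and 0.0855. Mgll, at 30.4 ± 17.2 FPKM in C_O, had a difference of -1.04 (limma, adjusted p = 0.908), which was -0.43 without C_O72. The list of CCK and other interneurons had a lower mean of log2(FPKM + 1) in C_O without overlap, and the other 16 marker lists overlapped. The gap was narrow, with 4.528 in C_W70 against 4.524 in C_O30 and 4.520 in C_O15, while C_O72 was at 3.03. Cnr1 (0.02) and Abhd12 (0.05) had the differences nearest to 0, with 95% confidence intervals of -0.54 to 0.59 and -0.23 to 0.34.

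In stressed mice, the comparison of MS_W with MS_O asks how krill oil goes with the levels under CUMS. It shares MS_W with the first comparison and MS_O with the second. No member had an unadjusted limma p under 0.05, where 6.09% of all tested genes had, and none had an adjusted p under 0.05. Faah was higher in MS_O without overlap, 1 of 8 where 12.3% of all tested genes did not overlap (4.64% higher), at 9.87, 6.92 and 7.22 FPKM against 6.23, 5.95 and 4.85 FPKM in MS_W. MS_O13 was well above the rest, and MS_O46 and MS_O78 were close to the highest MS_W library. The difference for Faah was 0.42 (SE 0.276; limma, adjusted p = 0.837). Mgll averaged 26.6 ± 19.7 FPKM in MS_O and 11.6 ± 7.65 FPKM in MS_W, with overlap, and its difference of 1.00 (SE 0.637) ranged from 0.45 without MS_O13 to 1.61 without MS_O78 (limma, unadjusted p = 0.0244, adjusted p = 0.980). Cnr1 averaged 17.1 ± 5.53 FPKM in MS_O against 25.8 ± 8.97 FPKM in MS_W, and its difference of -0.56 (limma, unadjusted p = 0.0537, adjusted p = 0.819) ranged from -0.79 without MS_O13 (unadjusted p = 0.01002, adjusted p = 0.355) to -0.30 without MS_W95, with an unadjusted p under 0.05 in 3 of the 6 fits that left out 1 library. The thalamus, hindbrain and oligodendrocyte lists had a lower mean of log2(FPKM + 1) in MS_O without overlap, and the list of CCK and other interneurons a higher one. The gaps were narrow for thalamus (1.166 in MS_W75, 1.158 in MS_O13) and oligodendrocyte (5.813 in MS_W31, 5.810 in MS_O13). They were also small for hindbrain (0.065 in MS_W31, 0.043 in MS_O46) and interneurons (4.675 in MS_W31, 4.715 in MS_O46). MS_W95 was farthest from MS_O in each of these lists, at 2.42, 6.50, 1.86 and 3.46. The cortex list overlapped in this mean, but all 10 of its genes had a higher mean FPKM in MS_O. Of the 10, 3 did not overlap and 1 had an unadjusted limma p under 0.05. Their summed level was 133 to 233 FPKM in MS_W and 288 to 410 FPKM in MS_O, without overlap. The part of any of these lists in the differences of the members was not tested.

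**Figure D3:**
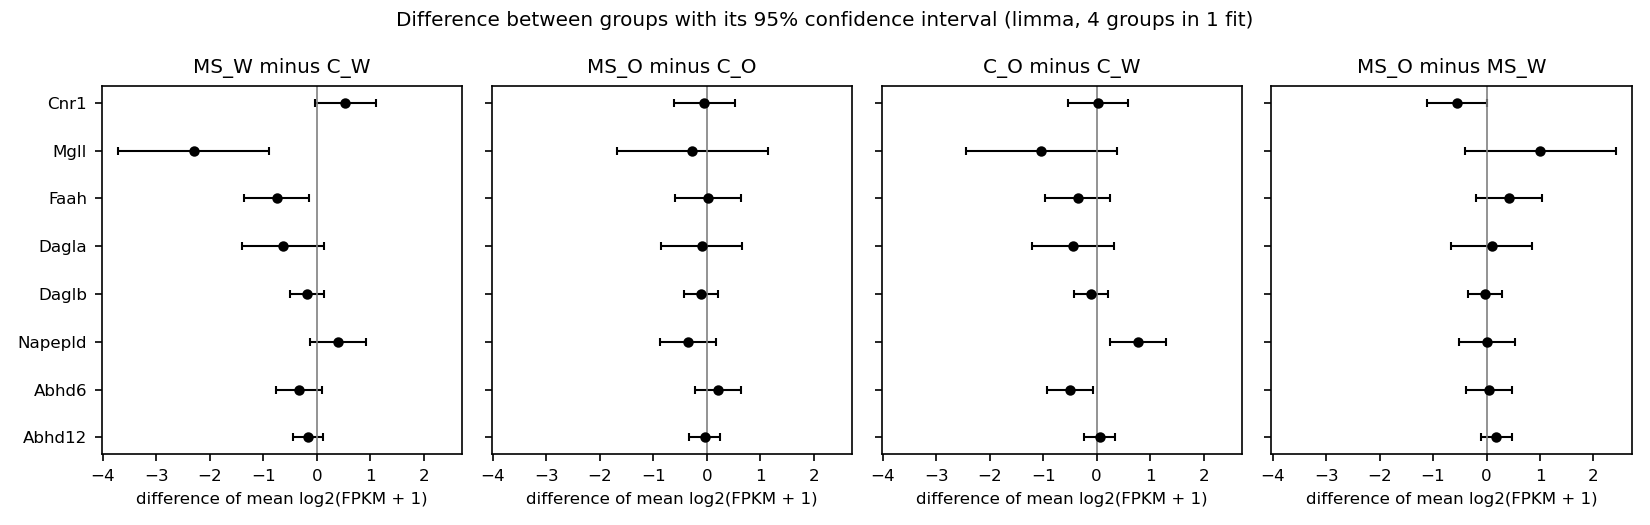
Difference between group means of log2(FPKM + 1) for the 8 genes (x axis) in 4 comparisons, from the limma fit of all 4 groups; points are estimates and whiskers 95% confidence intervals. The intervals of Mgll and Faah in MS_W minus C_W and of Napepld and Abhd6 in C_O minus C_W exclude 0, before any adjustment for the number of genes.

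The interaction term tested directly whether the difference between CUMS and control differed between water and krill oil. Mgll (2.04, SE 0.901) was above 0 and Napepld (-0.75, SE 0.334) was below 0 at unadjusted limma p of 0.0463 and 0.0470, 2 of 8 where 7.23% of all tested genes had such a p (3.6% above and 3.63% below 0). Their adjusted p was 0.665 each, and no member passed. For Mgll the estimate was 1.15 without C_O72 and MS_W95 (limma, unadjusted p = 0.212). For Napepld it was -1.10 without C_W1 and -0.67 without C_O72 and MS_W95. In edgeR and in DESeq2, too, no member passed an adjusted p of 0.05 for the interaction or in the comparisons other than C_W with MS_W, where edgeR gave 0 and DESeq2 1. Over all 21393 tested genes, edgeR gave 1 and DESeq2 389 between C_W and MS_W. The estimate was above 0 for 6 of 8 members and 47.4% of all tested genes, and the medians were 0.34 and -0.02.

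Ratios and shares within a library compare enzymes of opposite or shared function and do not depend on the scaling of FPKM between libraries, while the summed level given with them does. Of the summed FPKM of the 3 hydrolases of 2-AG, Mgll made up 26.3% to 31.7% in C_W and 5.75% to 15.0% in MS_W. In C_O it made up 22.9%, 22.8% and 8.42%, and in MS_O 25.5%, 16.0% and 6.48%, so that C_O72 and MS_O78 were near the MS_W libraries. The summed level of the 3 hydrolases was 187 ± 16.3 FPKM in C_W and 127 ± 15.8 FPKM in MS_W (SD, n = 3). Mgll over Dagla, a ratio of 2-AG breakdown to 2-AG synthesis at the level of RNA, was 2.22 to 2.38 in C_W, 1.23 to 1.84 in C_O, 0.436 to 1.40 in MS_W and 0.603 to 2.02 in MS_O.

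Dagla over Daglb was 5.46 to 5.97 in C_W and 3.97 to 4.73 in MS_W. Faah over Napepld was 2.15, 6.74 and 5.78 in C_W1, C_W64 and C_W70 and 1.24 to 1.86 in MS_W, without overlap. C_W1 was nearer to the MS_W libraries than to its own group in this ratio. Over 7 ratios or shares, 1 summed level and 4 comparisons, the exact two-sided permutation test of 3 mice against 3 cannot go below 0.1, and the lowest p adjusted over these 32 tests was 0.246. None of these measures is therefore shown to differ by that test.

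**Figure D4:**
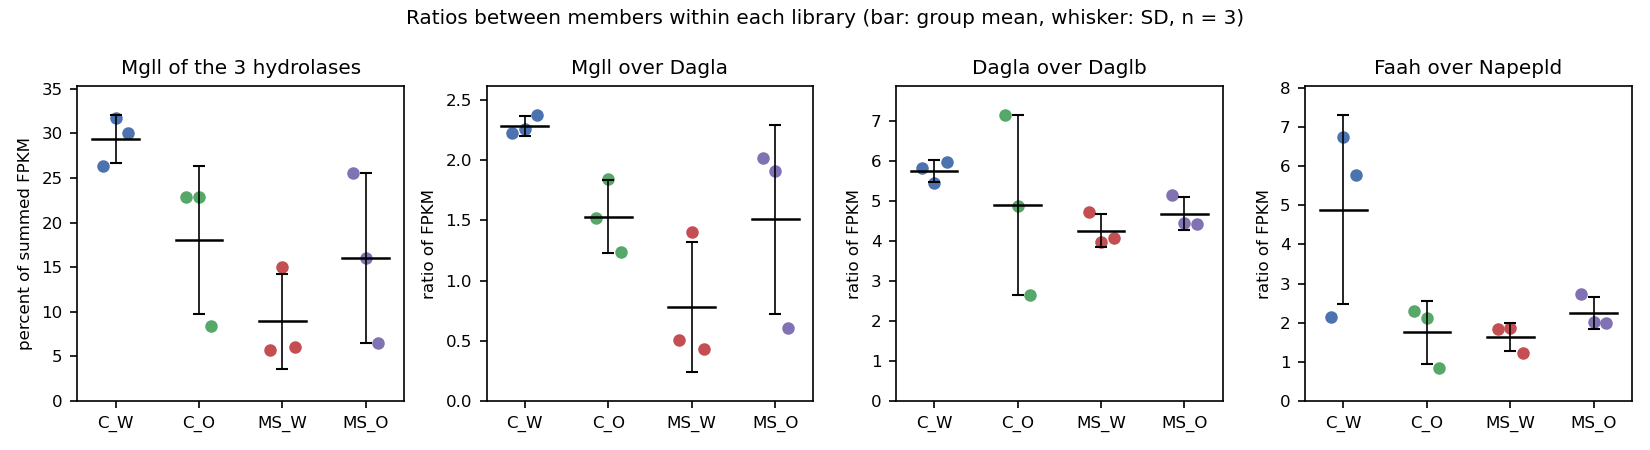
Ratios within each library (y axes, from 0) by group; points are mice, bars group means and whiskers SD (n = 3). The share of Mgll in the summed FPKM of Mgll, Abhd6 and Abhd12 is 26.3% to 31.7% in C_W and at most 15.0% in MS_W, and C_W1 stands below the other C_W libraries for Faah over Napepld.

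Across the 12 libraries the members varied together only in part, as a description of libraries that share depth, scaling and tissue make-up. Pearson's r of log2(FPKM + 1) was highest for Faah with Dagla (0.92, n = 12) and for Mgll with Faah (0.86), followed by Dagla with Daglb (0.79). Napepld had an r below 0 with every member but Abhd12 (0.39), and was lowest with Abhd6 (-0.52). Cnr1 lay between -0.36 and 0.32 with every other member. Among the 13621 genes with a mean of at least 1 FPKM, the 3 most alike to Mgll were Mat2b (0.94), Yaf2 (0.93) and Tbc1d30 (0.93), and those most alike to Faah were Arhgef25, Sidt1 and Gm42864 (0.98 each). Those most alike to Dagla included Ltk (0.98) and Mical2 (0.97), and to Cnr1 they were Grk5 (0.92), Abca8b (0.89) and Mylip (0.88). For Daglb they were Adgrl2, Flot2 and Gabbr2 (0.91 to 0.92), for Napepld Tomm5, Gmppb and Tmem254c (0.83 to 0.84), for Abhd6 Gcc2, Dok6 and Kif17 (0.90 to 0.92), and for Abhd12 4930422M22Rik, Zhx1 and Ezr (0.82 to 0.89).

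Other genes of the pathway were taken as 5 lists of receptor partners, synthesis, breakdown, carriers and receptors that drive 2-AG release. Of their 36 genes in the table, 29 were tested, and none passed an adjusted limma p of 0.05 in any comparison. Between C_W and MS_W, 3 were higher and 4 lower at an unadjusted p under 0.05, where 10.5% of all tested genes had such a p. The same p was reached by 2 higher genes between C_O and MS_O (8.88% of all tested genes), by 1 lower between C_W and C_O (3.55%), by 2 higher and 1 lower between MS_W and MS_O (6.09%), and by 2 above and 1 below 0 for the interaction (7.23%). Gprasp1, which binds CB1 after its uptake from the membrane and directs it to lysosomes, was at 54.0, 60.2 and 59.0 FPKM in C_W and at 79.2, 77.0 and 79.0 FPKM in MS_W. It was at 54.4 to 64.2 FPKM in C_O and at 53.0 to 58.5 FPKM in MS_O, so that the 3 MS_W libraries were above all 9 others, MS_W95 included. The difference in log2(FPKM + 1) was 0.44 between C_W and MS_W (SE 0.0914; limma, adjusted p = 0.200) and -0.48 between MS_W and MS_O (adjusted p = 0.292), and the interaction was -0.52 (adjusted p = 0.553).

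Chrm3, a muscarinic receptor whose activation drives 2-AG synthesis, was at 10.6 to 11.2 FPKM in C_W and at 5.65, 5.52 and 2.07 FPKM in MS_W (difference -1.23; limma, adjusted p = 0.431). The related Chrm1, named after its values were seen, was at 0.44 FPKM in C_O72 and 0.42 FPKM in MS_W95 but at 20.1 to 30.4 FPKM in the other 10 libraries. The lowest values of Chrm1 thus lay in the libraries that differed from the rest. So did those of Chrm3, at 2.10 FPKM in C_O72 and 2.07 FPKM in MS_W95 against 4.78 to 11.8 FPKM in the other 10. The difference of Chrm3 without these libraries is not given here.

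Among carriers and synthesis genes, Fabp3, a fatty acid binding protein that can carry endocannabinoids, was lower in MS_W without overlap, at 70.4 to 76.3 FPKM against 106 to 108 FPKM in C_W (difference -0.52; limma, adjusted p = 0.289). Its interaction was 0.46 (adjusted p = 0.665). Fabp7, a carrier of radial glia and astrocytes, was higher in MS_O than in C_O, at 16.8, 46.2 and 79.5 FPKM against 3.58, 14.6 and 7.23 FPKM (difference 2.28; limma, adjusted p = 0.479). All 7 olfactory bulb markers were higher in MS_O as well, without overlap and with an unadjusted limma p under 0.05, and they summed to 8.22, 24.04 and 8.79 FPKM in C_O and to 37.6, 206 and 219 FPKM in MS_O. Their part in the level of Fabp7 was not tested. Gde1, which releases anandamide by a route beside Napepld, was at 109 to 126 FPKM in C_W and 82.0 to 98.0 FPKM in MS_W (difference -0.34), and Gdpd1, a lysophospholipase D of a similar route, at 18.7 to 20.6 FPKM and 22.2 to 23.5 FPKM (difference 0.22).

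Pla2g4e, an acyltransferase that makes the precursor Napepld cleaves, was at 1.69 to 1.99 FPKM in C_W, 0.79 to 1.49 in C_O, 0.81 to 1.22 in MS_W and 1.19 to 1.902 in MS_O. It was lower in MS_W and in C_O than in C_W (differences -0.49 and -0.41) and higher in MS_O than in MS_W (0.38), each at an unadjusted limma p under 0.05, and its interaction was 0.79 (adjusted p = 0.631). Alox12, a lipoxygenase that can oxidise both endocannabinoids, was low throughout, at 0.23 to 0.66 FPKM in MS_O and at most 0.33 FPKM elsewhere. The 7 genes not tested had a mean under 0.1 FPKM and included Cnr2 (0.0592 FPKM), the CB2 receptor of immune cells, and Trpv1 (0.0214 FPKM), a channel that anandamide opens, both named after their values were seen.

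**Figure D5:**
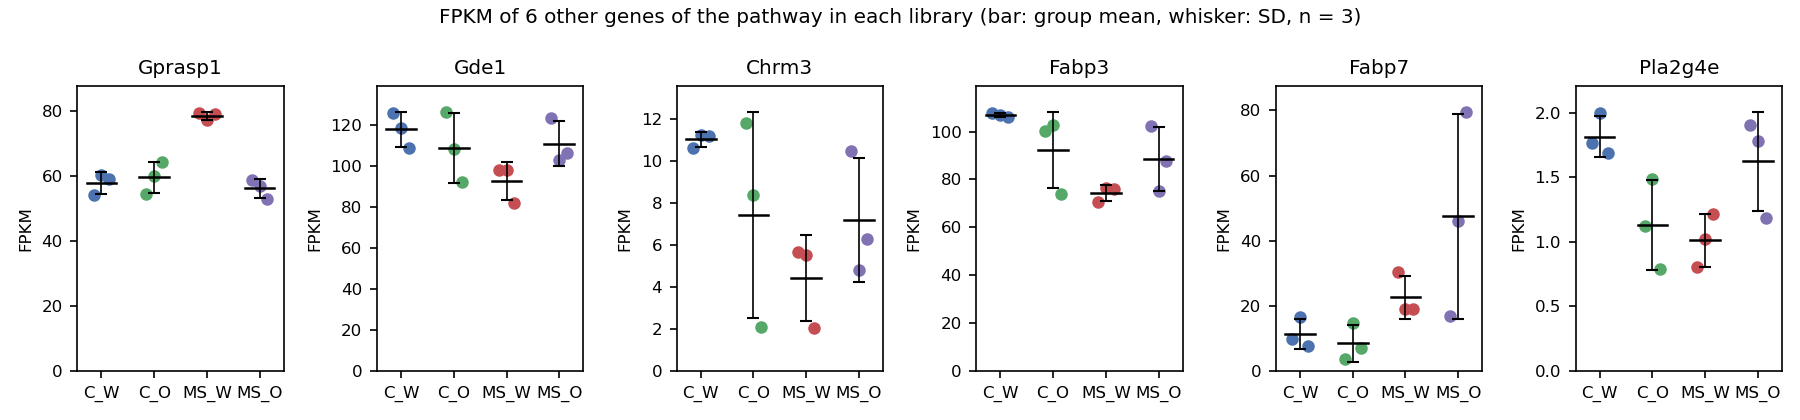
FPKM (y axes, from 0) of Gprasp1, Gde1, Chrm3, Fabp3, Fabp7 and Pla2g4e in the 12 libraries by group; points are mice, bars group means and whiskers SD (n = 3). The 3 MS_W points of Gprasp1, at 77.0 to 79.2 FPKM, lie above the other 9 libraries, and the 3 C_W points of Fabp3, at 106 to 108 FPKM, lie above all 3 MS_W points.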

How the data were processed

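Poly(A) RNA of 12 mouse brains was sequenced in paired-end mode. Per the labels and the methods of the study, the authors trimmed reads (cutadapt 1.9), aligned them to mm10 (HISAT2 2.0.4), assembled transcripts (StringTie 1.3.4d) and took FPKM values per gene with Ballgown. The deposited table also gives estimated count values, which equal FPKM times a fixed factor per gene and library for each member (largest deviation 0.109%), so isoforms were not separated. The authors' GEO notes also name edgeR and DESeq2 without a role.

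The 8 members, the pathway lists and the 17 marker lists were chosen with earlier results of these data known. limma 3.58.1 (R 4.3.3; lmFit, eBayes with trend) was fitted to log2(FPKM + 1) of 21393 genes (mean FPKM 0.1 or more), with the 4 groups in 1 model and Benjamini-Hochberg adjustment over these genes. A fold change on this scale understates changes of low genes. All 8 members are named, the other pathway genes where an unadjusted p was under 0.05 in a comparison, and for each member the 3 genes with the highest r; the values of some of these genes are not reported here. The alternatives tried were a pseudocount of 0.1 or 0.01, a filter at a mean of 1 FPKM or none, quantile normalization, median centring, fits of 2 groups, DESeq2 1.42.0 and the quasi-likelihood test of edgeR 4.0.16 on rounded estimated counts, 10 libraries without C_O72 and MS_W95, and leaving out each library. The tests were checked on simulated data. The remaining steps used pandas 2.3.3 and matplotlib 3.10.9 under Python 3.11.15. Mice of a group were separate animals, with 3 per group. Gene coordinates of Faah differ from GENCODE M21, and the other 7 match it.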

Additional observations from a re-analysis of the deposited data

How the results depend on the processing

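Of 680 refitted differences of the 8 genes, 640 kept their direction and their side of an adjusted p of 0.05, 37 changed sign and 3 newly passed (Mgll in DESeq2 and Dagla in the fit of the 2 groups compared, both C_W vs. MS_W, and Napepld without C_W1 in C_W vs. C_O). The number of members past an adjusted p of 0.05 was thus 1 in place of 0 in C_W vs. MS_W under DESeq2 and under the fit of 2 groups. Of all 21393 tested genes, 389 passed in that comparison under DESeq2 and 121 under the fit of 2 groups. Leaving out 1 library gave 0 to 1 members in C_W vs. C_O, where 4 of all tested genes passed without C_W1. Over all genes, the number past an adjusted p ranged from 0 to 389 in C_W vs. MS_W (1 in the fit reported), 1 to 172 in C_O vs. MS_O (1), 0 to 54 in C_W vs. C_O (0), 1 to 79 in MS_W vs. MS_O (1) and 0 to 151 for the interaction (0). The cause of these shifts was not tested.

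Members with an unadjusted p under 0.05 numbered 1 under the fit of 2 groups and 2 in the 10 libraries, in both C_O vs. MS_O and MS_W vs. MS_O; over all genes they numbered 1265 and 2911 (1899 in the fit reported), and 1126 and 1828 (1303). For the interaction they numbered 0 with no filter, in edgeR and in the 10 libraries, and 1 with quantile normalization, median centring and DESeq2, against 1546 of all genes in the fit reported and 1573 to 2135 under these 6. Leaving out 1 library gave 1 to 4 in C_W vs. MS_W, 0 to 2 in C_O vs. MS_O, 1 to 3 in C_W vs. C_O, 0 to 1 in MS_W vs. MS_O and 0 to 2 for the interaction, and over all genes 1425 to 2235, 918 to 2950, 470 to 1768, 795 to 1947 and 993 to 2186.

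Signs that changed were of differences that had not passed. In C_O vs. MS_O, Faah was -0.035 with quantile normalization, -0.057 with median centring, -0.13 in edgeR, -0.14 in DESeq2 and -0.36 in the 10 libraries, and Abhd12 was 0.0017 with quantile normalization. In C_W vs. C_O the 10 libraries gave 0.034 for Faah and 0.0090 for Dagla. In MS_W vs. MS_O, Daglb was 0.0351 in edgeR and 0.0349 in DESeq2, and Abhd6 was -0.21 in the 10 libraries. Leaving out 1 library gave, in C_O vs. MS_O, -0.28 to 0.11 for Cnr1, -0.87 to 0.35 for Mgll, -0.36 to 0.25 for Faah, -0.55 to 0.24 for Dagla, -0.26 to 0.020 for Daglb and -0.10 to 0.036 for Abhd12. In C_W vs. C_O it gave -0.097 to 0.15 for Cnr1, -0.58 to 0.034 for Faah, -0.78 to 0.0090 for Dagla and -0.054 to 0.14 for Abhd12. In MS_W vs. MS_O it gave -0.16 to 0.28 for Dagla, -0.18 to 0.099 for Daglb, -0.034 to 0.079 for Napepld and -0.21 to 0.21 for Abhd6, and for the interaction -0.079 to 0.21 for Daglb.

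With 3 mice per group, the p-values rest on few animals, and the estimated counts come from coverage, so that no counting interval is given. No paired analysis was possible because the mouse numbers are not shared between groups.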
